A study of Drosophila melanogaster with 16 samples.

Results

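The genes described here encode the subunits of the proteasome, and they are the 47 of 16727 rows of the gene table whose symbol starts with Prosalpha, Prosbeta, Rpn or Rpt followed by a digit. Of these, 32 are canonical subunits (7 alpha, 7 beta, 6 Rpt, 4 Rpn of the base and 8 Rpn of the lid) and 15 are paralogues whose symbol carries an R or a T after the number. RNA was sequenced from Drosophila melanogaster females raised at 25 °C and picked as they passed from the late larval to the prepupal stage. The tissue was larval fat body, the storage and metabolic organ, or the same organ taken with the developing ovaries embedded in it. The heterozygous animals carried dLmx1a delta1 over the balancer chromosome TM3-GFP, and the animals titled homozygous were chosen by the absence of that balancer, so all 4 groups carry at least 1 copy of the mutant allele and none is wild type. Each combination of tissue and genotype had 4 libraries numbered 1 to 4, 16 in all, and the study asked how loss of the LIM homeodomain factor dLmx1a alters the transcriptome of the developing ovary. Because TM3-GFP is present in 1 genotype and absent in the other, effects of the allele and of the balancer cannot be told apart. Nothing in the labels says that the 4 libraries of a group came from separate animals, and every p-value below rests on the spread among these libraries alone, which may be technical.

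The proteasome is the main cytosolic and nuclear protease for proteins tagged with ubiquitin. Its core is a barrel of stacked rings, in which alpha subunits form the outer gates and beta subunits the inner chamber where peptide bonds are cut. A regulatory particle caps the barrel, with Rpt ATPases that unfold the substrate and thread it in. It also holds Rpn subunits of the base, among them receptors for ubiquitin chains, and Rpn subunits of the lid, among them the deubiquitinase Rpn11. The complex is needed in practically every cell, and Drosophila carries extra copies of several subunit genes that are known mainly from the male germline.

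The 16 libraries held 19022106 to 32755588 reads on genes, and 10105 to 10970 genes had at least 1 read. Values are the deposited counts divided by a size factor per library, called normalised counts below. The fat body list had reads for 8 of 8 genes and summed to 1.51e+07 to 1.84e+07 in fat body and 1.08e+07 to 1.3e+07 with ovaries. The germline list (10 of 10 genes read) summed to 56.6 to 208 in heterozygous fat body and 26.3 to 59.7 in titled homozygous fat body. With ovaries it summed to 2168 to 3194. The targeted gene (CG32105 in the table) was read at 518 to 723 in the heterozygous libraries with ovaries and at 564 to 742 in those titled homozygous, so its level does not check the genotype. In heterozygous fat body libraries 1 to 4 it was read at 2.83, 23.5, 1.11 and 0, and in titled homozygous fat body at 0 to 4.59. The amount of ovary RNA in the fat body libraries was not tested. The eye colour gene w was read at 41.5 to 202 in heterozygous and 0 to 3.06 in titled homozygous libraries, a split that follows the titles.

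Canonical subunits were read at high and closely matched levels, and all but 1 of the 32 were present in every library. Levels between genes are given as normalised counts per kb of coding sequence, averaged over the 16 libraries. On this scale the 31 measured subunits had a median of 2165 and differed at most 2.39-fold, from 1451 for Rpt6, an ATPase of the base ring, to 3462 for Prosalpha2, a gate subunit. Class medians per kb were 2414 for the alpha ring (6 genes), 2730 for the beta ring (7), 2012 for the Rpt ATPases (6), 1612 for the Rpn subunits of the base (4) and 2095 for those of the lid (8). The core particle subunits thus lay above the base subunits in median, while the ranges of single genes overlapped between every pair of classes except the base and the alpha or beta ring. Per kb of all exons the spread was 2.17-fold, with Prosalpha2 again highest at 2641 and Rpn13, a ubiquitin receptor, lowest at 1216.

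Prosalpha2 had 2257, 3081, 2799 and 3059 normalised counts in heterozygous fat body libraries 1 to 4 and 2327, 2340.2, 2651 and 2578 with ovaries. In the libraries titled homozygous it had 2105, 2341, 2192 and 2295 in fat body and 2113, 2342, 2147 and 2254 with ovaries. Libraries 2 to 4 of heterozygous fat body stood highest and the libraries numbered 1 lowest in all 4 groups. Rpt6 had 1499, 2334, 2065 and 2110.5 in heterozygous fat body and 1581, 1672, 1952 and 1907 with ovaries. Its values were 1320.2, 1799.9, 1665 and 1809 in titled homozygous fat body and 1396, 1779, 1566 and 1749.7 with ovaries, again with the lowest value of each group at number 1.

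Prosalpha1, the remaining alpha subunit, had 0 reads in all 16 libraries, which allows up to 2.34 to 4.59 normalised counts in a library (3 reads, counting error only). Its gene lies on arm 2R of dm6, minus strand, from 7827303 to 7828678, and a copy named Prosalpha1R (CG30382 in the table, outside the pattern) lies 1734 bases away at 7830413 to 7831771. The copy has 3 coding exons of 76, 177 and 479 bases, the same lengths as Prosalpha1, and it also had 0 reads. How reads that match both copies were counted is not stated in the sources used here. The level of Prosalpha1 in these tissues is therefore unknown and the gene was not tested.

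Among the 15 paralogues, 14 had at least 1 read somewhere, Prosbeta4R2 had none, and only 3 reached a mean of 1 normalised count: Rpt3R (15.8), Rpt6R (3.03) and Prosbeta2R2 (2.01). All 4 paralogues whose symbol ends in T or T with a number, known as testis forms of alpha subunits, stayed below a mean of 1 (Prosalpha3T 0.128, Prosalpha4T1 0.21, Prosalpha4T2 0.247 and Prosalpha6T 0.312). The other 7 paralogues with a read (Prosbeta2R1, Prosbeta4R1, Prosbeta5R1, Prosbeta5R2, Rpn12R, Rpn13R and Rpt4R) ranged in mean from 0.0624 to 0.947. A mean of at least 10 was required for testing, which 32 of the 47 members passed, namely the 31 measured canonical subunits and Rpt3R.

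Rpt3R, a paralogue of the ATPase gene Rpt3 on arm 3R (9754735 to 9756510 of dm6, minus strand), had more reads in the libraries that contained ovaries. It had normalised counts of 4.72, 9.21, 5.57 and 11.8 in heterozygous fat body and 31.2, 24.9, 28.2 and 23.9 with ovaries. In the libraries titled homozygous its values were 4.59, 1.21, 5.85 and 4.99 in fat body and 28.6, 25.2, 23.4 and 19.6 with ovaries. Every library with ovaries lay above every fat body library. The log2 fold with ovaries was 1.74 ± 0.36 (SE, n = 4 per group, limma adjusted p = 0.00187) in heterozygotes and, in titled homozygotes, 2.40 ± 0.36 (adjusted p = 9.99e-05). Rpt3R was the only tested member past the threshold in either tissue comparison. Of all genes, 18.6% were higher in the first and 19.8% in the second. Rpt3R reached the mean required for testing only through the libraries with ovaries. Its means were 27.1 in heterozygotes and 24.2 in titled homozygotes there, against 7.83 and 4.16 in fat body. A member as low in fat body could thus be tested only if it was higher with ovaries. Without that filter Rpt3R was still called in both genotypes (limma adjusted p = 0.00374 and 0.000199). Between genotypes its fold was -0.82 ± 0.36 in fat body (adjusted p = 0.218) and -0.16 ± 0.36 with ovaries (adjusted p = 0.921). Its exons overlap Alg12 on the other strand over 20 bases, which is 1.38% of their length.

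Rpt6R, a paralogue of Rpt6, had 0.943, 3.07, 2.23 and 3.22 in heterozygous fat body and 6.03, 2.58, 5.81 and 6.43 with ovaries. In titled homozygous animals it had 0, 0, 0 and 0.998 in fat body and 2.86, 5.73, 4.68 and 3.92 with ovaries. The groups overlapped in heterozygotes and did not in titled homozygotes, where 17.6% of the 7824 tested genes were higher without overlap. Prosbeta2R2, a paralogue of a catalytic subunit, had 0, 1.02, 0 and 0 in heterozygous fat body and 3.02, 0, 4.98 and 3.67 with ovaries. It had 1.53, 1.21, 0.974 and 0 in titled homozygous fat body and 2.86, 3.44, 5.46 and 3.92 with ovaries, again without overlap in the latter genotype only. Both are a few reads per library, close to the limit that 0 reads allow, and the filter kept them out of the test. Without that filter Rpt6R was called in titled homozygotes, with a fold of 2.13 with ovaries (limma adjusted p = 0.000566). In that fit 11.9% of 14401 genes were higher. Rpt6R had 0, 0, 0 and 1 read in titled homozygous fat body, so the size of its fold depends on the 1 added to each value. The testis list (14 of 14 genes read) summed to 245 to 686 in fat body and 283 to 629 with ovaries, most of it Mst87F and topi. Mst87F and topi had lower means with ovaries in both genotypes, at 261 against 382 and 84.45 against 97.4 in heterozygotes. The low means of fzo and dj were also lower. Those of mia and twe were higher in both genotypes, at 38.2 against 8.29 and 50.1 against 12.9 in heterozygotes. The mean of bol was higher with ovaries in heterozygotes (26.1 against 8.76) and lower in titled homozygotes (19.5 against 30.1). The part of other cells in these 3 paralogues was not tested.

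**Figure D1:**
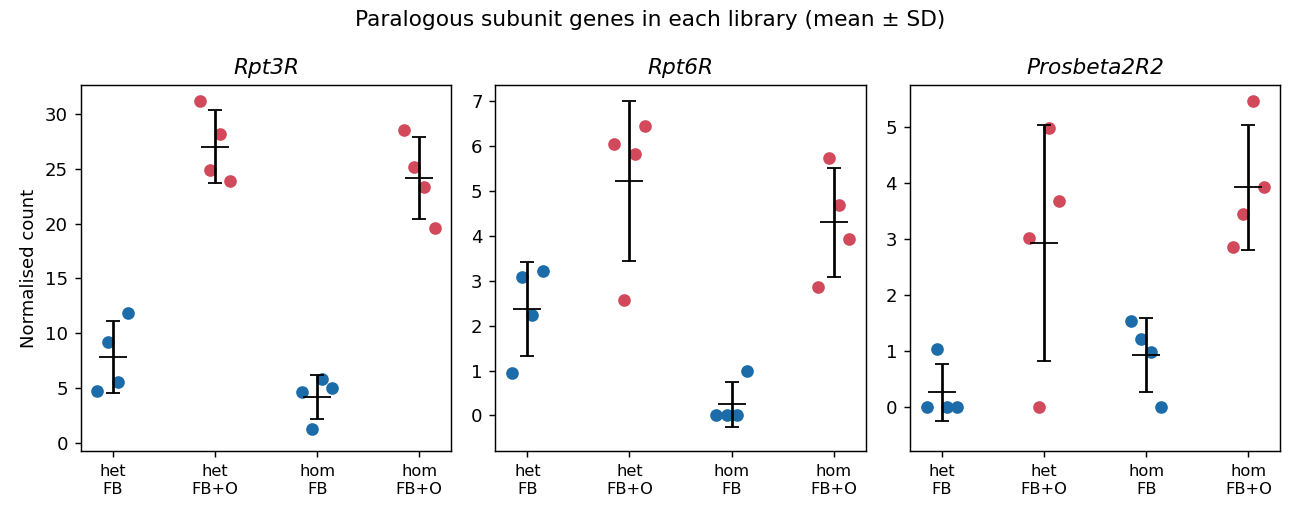
Normalised counts of Rpt3R, Rpt6R and Prosbeta2R2 in each of 4 libraries per group (points), with the group mean and SD as bars; het and hom are heterozygous and titled homozygous, FB fat body and FB+O fat body with ovaries. Rpt3R lies at 19.6 to 31.2 in the libraries with ovaries and at 1.21 to 11.8 in fat body.

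The canonical subunits moved together from library to library. In the heat map of all 31 subunits the colour changes by column rather than by row, and heterozygous fat body libraries 2, 3 and 4 have every subunit above its own mean, as have heterozygous libraries 3 and 4 with ovaries. The libraries numbered 1 and titled homozygous library 3 with ovaries have none above it. The library numbered 1 had the lowest value of its group for 31 of 31 subunits in heterozygous fat body and 30 of 31 with ovaries. In the libraries titled homozygous it was lowest for 28 of 31 in fat body and 24 of 31 with ovaries. Among all 7824 tested genes the share lowest in library 1 was 34.6%, 21.6%, 34.8% and 34.9% in those groups. The 31 subunits summed to 66886, 95088, 87283 and 91039.7 normalised counts in heterozygous fat body libraries 1 to 4 and to 65094, 70428, 80453 and 77174 with ovaries. In the libraries titled homozygous the sums were 58858, 74689, 68121 and 71511 in fat body and 60416, 71448, 63442 and 67293 with ovaries. As a share of all normalised counts, which the abundant fat body transcripts dominate, the subunits made up 0.301% ± 0.0461 (SD, n = 4) in heterozygous fat body and 0.224% ± 0.0189 in titled homozygous fat body. With ovaries the shares were 0.340% ± 0.0386 and 0.290% ± 0.0159.

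**Figure D2:**
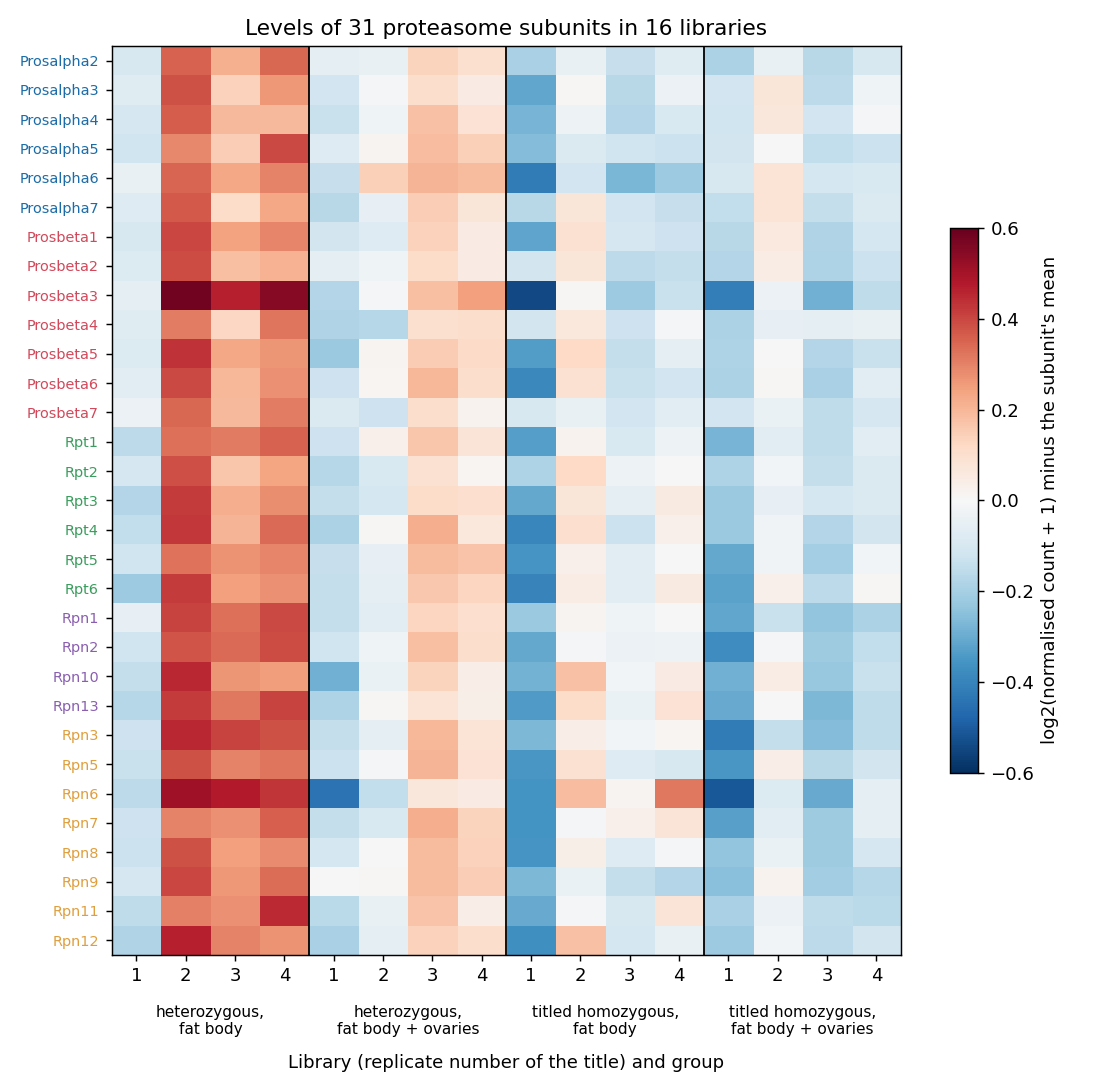
Level of 31 canonical subunits (rows, coloured by class: alpha, beta, Rpt, Rpn of base, Rpn of lid) in 16 libraries (columns), as log2(normalised count + 1) minus the subunit's mean over all libraries. Libraries 2 to 4 of heterozygous fat body and 3 and 4 of heterozygotes with ovaries are above the mean for 31 of 31 subunits, and library 1 of each group and titled homozygous library 3 with ovaries for 0 of 31.

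Co-variation was measured on deviations from group means, so that differences between groups play no part, over 16 libraries, whose depth and preparation all genes of a library share. Each subunit correlated with the mean of the others at 0.842 (Prosbeta2) to 0.991 (Rpn8, a lid subunit), with a median of 0.965, against a median of 0.0153 for the other 7793 tested genes. The gene outside the pattern most like the subunits was Sem1 at 0.98, which encodes a small subunit of the lid that the symbol pattern does not catch. It was followed by CG4585 (0.960), the ubiquitin-dependent segregase TER94 (0.956), the protease gene modSP, the deubiquitinase Uch (0.941), Ced-12 (0.936), the ubiquitin-conjugating enzyme eff (0.935), the myosin heavy chain zip (0.935), scf (0.934) and the giant peptidase TppII (0.932). The likeness was weaker without the libraries numbered 1. Over the other 12 libraries the subunits correlated at 0.626 to 0.982 with a median of 0.906, Sem1 stayed first at 0.955 and TppII was at 0.935, whereas TER94 was at 0.760 and rank 113.

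Sem1 had 841, 1317, 1192 and 1212 normalised counts in heterozygous fat body and 834, 944, 1087 and 1085 with ovaries. In the libraries titled homozygous it had 753, 1112, 922 and 1017 in fat body and 745, 1036, 852 and 924 with ovaries. It was lowest in library 1 of every group, like the subunits. Its fold between genotypes in fat body was -0.26 ± 0.16 (limma adjusted p = 0.399).

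**Figure D3:**
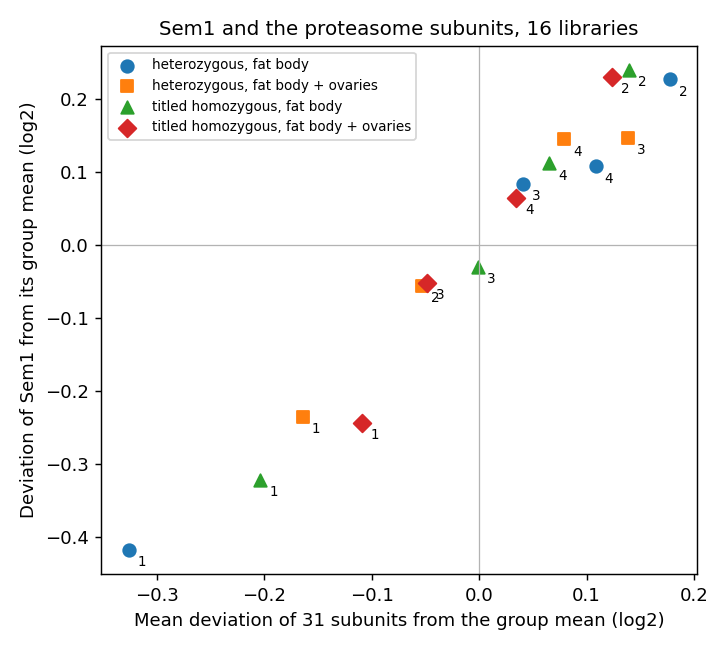
Deviation of Sem1 from its group mean against the mean deviation of 31 subunits, both on the log2 scale, for 16 libraries marked by group and labelled with their number. The 4 libraries numbered 1 lie lowest on both axes, and the points of all groups rise together (r = 0.98 over 16 libraries).

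Between genotypes in fat body, every measured subunit of every class was lower in the libraries titled homozygous. The 31 canonical folds ran from -0.60 to -0.20 with a median of -0.30 on the log2 scale, where all 7824 genes had a median of 0.00 and 50.3% of them lay below 0. A share of 17.3% of all genes lay at or below the subunits' median. The class medians were alike, at -0.31 for alpha, -0.32 for beta, -0.28 for Rpt, -0.31 for the Rpn of the base and -0.30 for those of the lid. Past the limma threshold, an adjusted p of 0.05 over all tested genes, 3 subunits fell, while 3.11% of all genes fell in this comparison. A further 21 of the 31 had an unadjusted p below 0.05, making 24, beside 1512 of 7824 genes.

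Prosbeta3, a non-catalytic beta subunit (arm 3R, 9005313 to 9006226 of dm6), had the largest difference. Its normalised counts were 1899, 2945, 2728 and 2879 in heterozygous and 1354, 1983, 1698 and 1799.8 in titled homozygous fat body. Library 1 of the heterozygotes lay below library 2 of the other genotype, so the groups overlapped. The log2 fold was -0.60 ± 0.15 (SE, n = 4 per group, limma adjusted p = 0.0343), a value 34.2% lower. With ovaries it had 1749, 1954, 2239 and 2344 in heterozygotes and 1482, 1926, 1615 and 1776 in titled homozygotes.

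Prosalpha6, an alpha ring subunit (arm 2L, 10221351 to 10222546), had 1892, 2485, 2287 and 2397 in heterozygous and 1455, 1799.9, 1614 and 1674 in titled homozygous fat body. The groups did not overlap, and the fold was -0.47 ± 0.10 (adjusted p = 0.0178), or 27.6% lower. With ovaries it had 1773, 2153, 2242 and 2225 in heterozygotes and 1825, 2061, 1812 and 1829 in titled homozygotes, and there the genotypes overlapped. Among the 31 subunits only Prosalpha6 and Prosbeta7, a beta ring subunit with a fold of -0.28 ± 0.08 (adjusted p = 0.0612), had no overlap between the 4 and 4 fat body libraries, which is 2 of 31, where 4.78% of all genes were lower without overlap.

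Rpn9, a scaffold subunit of the lid (arm 3R, 23731375 to 23733462), had 2289, 3244, 2946 and 3094 in heterozygous and 2039, 2387, 2225 and 2171 in titled homozygous fat body. Heterozygous library 1 lay below titled homozygous library 2, and the fold was -0.38 ± 0.10 (adjusted p = 0.0483). With ovaries it had 2448, 2467, 2803 and 2719 in heterozygotes and 2064, 2495, 2124 and 2184 in titled homozygotes. In all, 12 of the 31 subunits, Rpn9 among them, share exon bases with another gene, 7 of them over more than 5% of their length and at most 15.7%. The strand setting of the counting is not given, so reads from shared bases cannot be told apart.

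The 3 catalytic subunits did not pass the threshold, though each was lower. Prosbeta1, which cuts after acidic residues, had 1225, 1731, 1547 and 1604 in heterozygous and 1051, 1397, 1222 and 1203 in titled homozygous fat body, a fold of -0.32 ± 0.11 (limma adjusted p = 0.116). Prosbeta2, the trypsin-like subunit, had 1702, 2363, 2042 and 2081 against 1668, 1893, 1615 and 1628, a fold of -0.26 ± 0.10 (adjusted p = 0.138). Prosbeta5, the chymotrypsin-like subunit, had 2257, 3223, 2806 and 2866 against 1891, 2597, 2159 and 2295, a fold of -0.32 ± 0.12 (adjusted p = 0.152). For all 3 the heterozygous library 1 lay within the range of the other genotype, and libraries 2 to 4 lay above it.

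Same-numbered fat body libraries of the 2 genotypes deviated together across all genes, so the numbers were taken to pair them. Within each of the 4 pairs, 31 of 31 subunits were lower in the library titled homozygous, by medians of -0.18, -0.32, -0.34 and -0.35 for numbers 1 to 4, where the all-gene medians were 0.04, -0.03, 0.00 and 0.00. The number was also fitted as a block, 1 factor shared by all 16 libraries. It thus also joins heterozygous libraries with and without ovaries, whose numbers were not taken as pairs. With this block 27 of the 31 fell (7.39% of all genes fell). They were 6 of 6 alpha, 6 of 7 beta, 4 of 6 Rpt, 3 of 4 base and 8 of 8 lid subunits. The 3 catalytic subunits were among them, with blocked adjusted p-values of 0.0210 for Prosbeta1, 0.0371 for Prosbeta2 and 0.0149 for Prosbeta5. Count tests on the recovered reads called 6 subunits lower with edgeR and 9 with DESeq2, where 3.18% and 4.75% of all genes were lower (376 and 744 genes called in both directions together). Scaled to equal library totals the median of all genes was -0.11 and the subunits' median was -0.41. There 16 subunits fell (5.46% of all genes fell). Scaling moves all genes of a library alike, so the subunits' distance of 0.30 below all genes stays the same by construction.

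The count depended on single libraries. Without heterozygous library 1 the count of subunits that fell was 21 (3.6% of all genes fell), and without library 2, 3 or 4 of that group it was 0, with all 31 folds below 0 in each case. Without titled homozygous fat body library 1 or 3 it was 1. Fitting only the 8 fat body libraries gave 0 calls (15 subunits with an unadjusted p below 0.05, beside 1078 of 7824 genes). Leaving out heterozygous library 2 together with titled homozygous library 1 gave 0 calls and a median of -0.18. That heterozygous library was the highest of its group for 25 of 31 subunits. It also had 23.5 normalised counts of CG32105, against 0 to 2.83 in the others of its group. The part of ovary RNA in the subunit differences was not tested. Leaving out number 1 in every group, an alternative chosen after the data were seen, gave 18 (3.92% of all genes).

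Marker genes of other tissues also differed between these libraries, though single genes carried the sums of the muscle, testis and gut lists. Ranges of the salivary glue, neuron, cuticle and trachea lists overlapped between the genotypes, as did those of muscle and gut. The muscle list (6 of 6 genes read, none at 0) summed to 404 to 731 in heterozygous and 61.4 to 527 in titled homozygous fat body. Its mean for Mlc2 went from 423 to 35.4, while the other 5 genes had higher means in titled homozygotes, such as Act57B at 36.6 and 97.8. The testis list (14 of 14) summed to 345 to 686 and 245 to 280, with Mst87F at means of 382 and 82.5 and topi, mia and bol higher in titled homozygotes. The testis genes sa, nht, comr and Mst35Ba were at 0 in all titled homozygous fat body libraries, and sa and Mst35Bb in all heterozygous ones. The gut list (6 of 6) summed to 22779 to 44242 and 12785 to 31009, nearly all of it LManII (LM408 in the table), and its genes lambdaTry and Mur29B were at 0 in heterozygous fat body. The fat body list was higher in titled homozygotes, at 1.73e+07 to 1.84e+07 against 1.51e+07 to 1.63e+07. Their part in the subunit differences was not tested, and in bulk tissue fewer cells of a type and less RNA per cell cannot be told apart. The balancer sits on the third chromosome, and the 14 subunits encoded there had a median fold of -0.31 against -0.30 for the 17 encoded elsewhere.

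**Figure D4:**
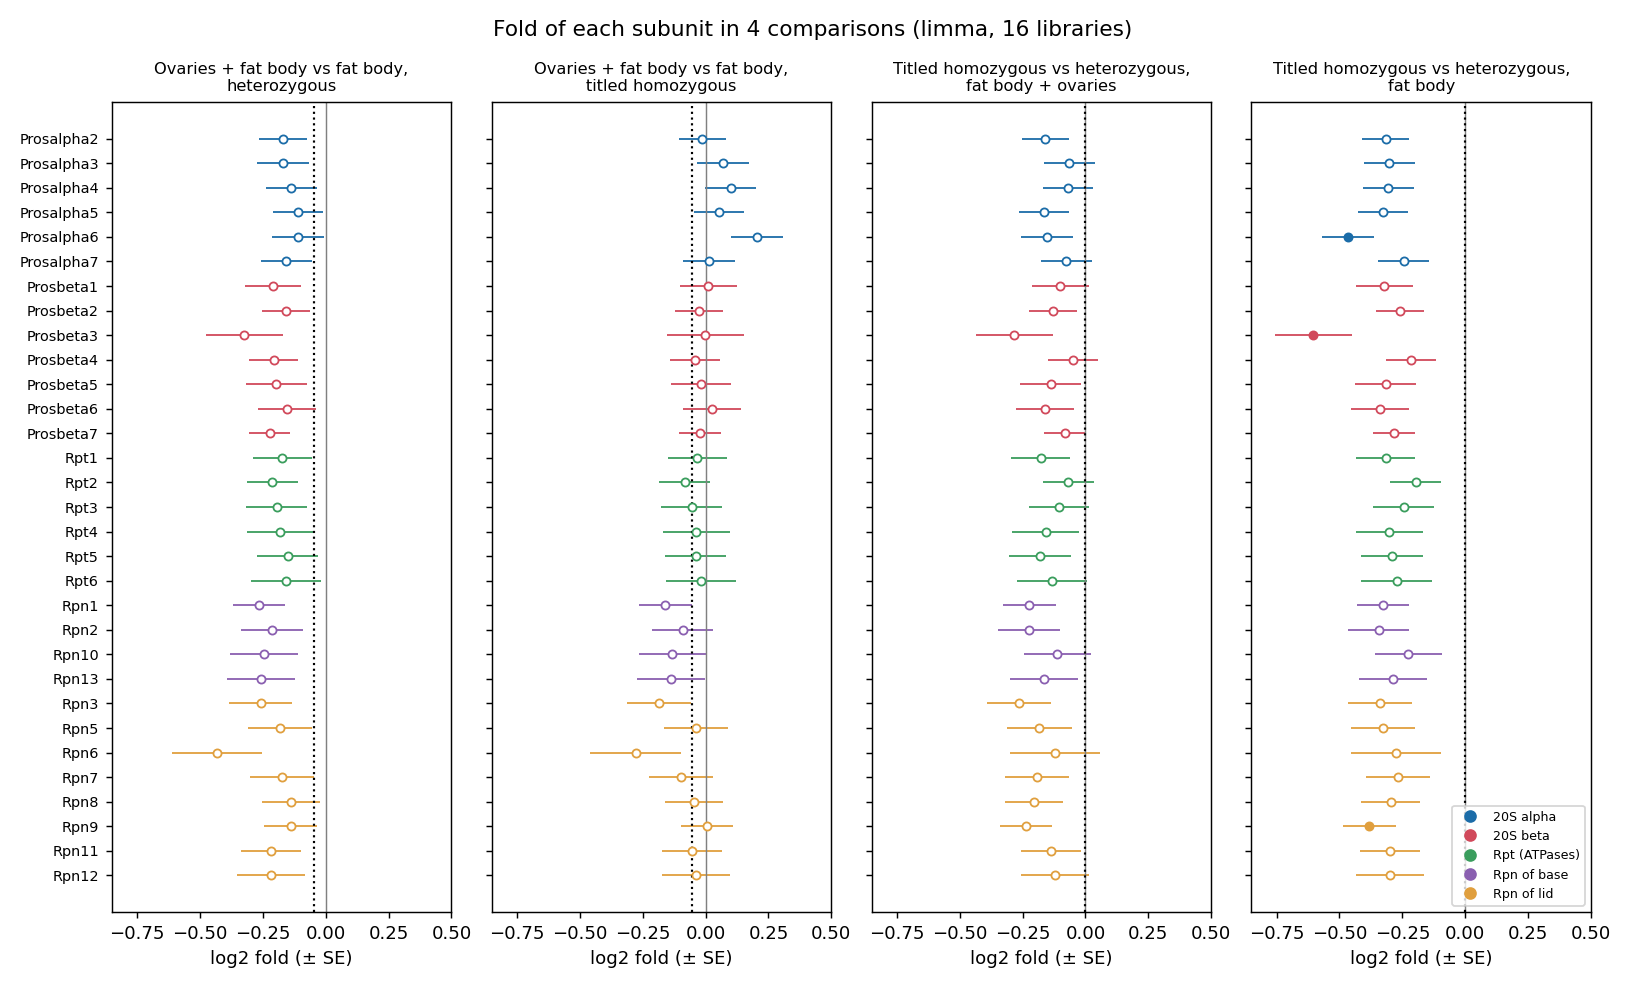
Log2 fold ± SE (limma, 16 libraries) of each of 31 subunits in 4 comparisons, coloured by class; filled points passed the threshold, and the dotted line is the median of all 7824 genes. In fat body every point lies left of 0 between -0.60 and -0.20, and the 3 filled points are Prosbeta3, Prosalpha6 and Rpn9.

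With ovaries present the same comparison gave smaller differences. All 31 folds lay below 0 with a median of -0.15. Among all genes the median was -0.0026, 50.5% lay below 0 and 24.6% lay at or below the subunits' median. None of the 31 passed the limma threshold, where 2.11% of all genes were called and 1.19% were lower. Only 1 subunit had an unadjusted limma p below 0.05, beside 1054 of 7824 genes. It was Rpn9, with a fold of -0.24 ± 0.10 (limma adjusted p = 0.341). The count tests edgeR and DESeq2 also called 0, where 1.2% and 2.8% of all genes were lower. Numbers were taken to pair the libraries here too, and 27, 11, 31 and 31 of 31 subunits were lower in numbers 1 to 4. The subunits' medians were -0.07, 0.03, -0.33 and -0.19, where the all-gene medians were -0.04, 0.02, 0.02 and 0.02. With the number as a block 1 subunit fell, the lid subunit Rpn3 by 0.26 (adjusted p = 0.0491), beside 4.0% of all genes. No subunit was without overlap between these groups, where 6.2% of all genes were lower without overlap. The salivary glue list (6 of 6 genes read) summed to 7.47 to 89.5 in these heterozygous libraries and 13.3 to 2060 in those titled homozygous. All 6 of its genes had higher means in the latter, and the part of such cells in the subunit levels was not tested.

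**Figure D5:**
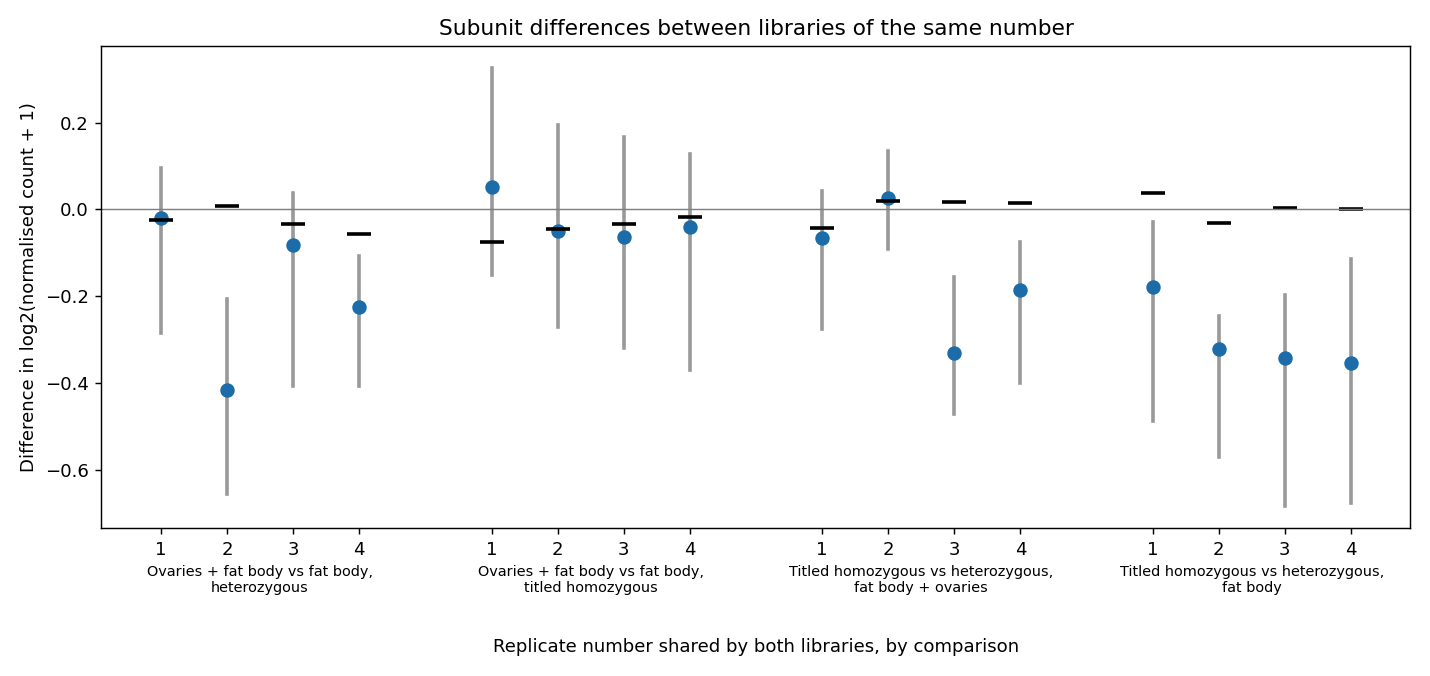
Difference between libraries of the same number in 4 comparisons, as the median over 31 subunits (blue points), the lowest and highest subunit (grey bars) and the median of all 7824 genes (black dashes), in log2 units. In the fat body genotype comparison the grey bars lie wholly below 0 for all 4 numbers. Numbers were not taken to pair the libraries in the heterozygous tissue comparison on the left.

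Whether the genotype difference itself depended on tissue was tested as an interaction. All 31 subunits had a positive term, a smaller genotype difference with ovaries, with a median of 0.14. All genes had a median term of -0.0096, and 52.1% of them lay below 0. None passed the limma threshold (adjusted p = 1 for Prosalpha6, the smallest at a term of 0.31 ± 0.15), 1 of 31 had an unadjusted p below 0.05, and edgeR and DESeq2 called 0 as well. In all 4 of 7824 genes passed with limma, 0.0511%, 4 with edgeR and 20 with DESeq2. An unadjusted limma p below 0.05 was found for 182 of the 7824 genes. A difference between the tissues was therefore not shown.

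Between fat body with ovaries and fat body alone, the canonical subunits differed little from the median of all genes. In heterozygotes all 31 folds lay below 0 with a median of -0.18, against -0.05 for all genes, and Rpt3R alone was called, beside 18.6% of genes higher and 10.7% lower. Of the 31, 3 had an unadjusted limma p below 0.05, beside 3208 of 7824 genes. Among all genes 54% of folds lay below 0. The count test edgeR called 0 of them (10.65% of all genes were lower). DESeq2 called 2 lower, Prosbeta7 and Rpn1 (14.0% of all genes were lower). No subunit was without overlap (13.1% of all genes were lower without overlap). The largest canonical difference was in Rpn6, a lid subunit, which had 3428, 5445, 5329.7 and 5160.1 in fat body and 2815, 3456, 4017 and 3964 with ovaries, a fold of -0.43 ± 0.18 (adjusted p = 0.0838). The catalytic subunits had folds of -0.21 ± 0.11 for Prosbeta1, -0.16 ± 0.10 for Prosbeta2 and -0.20 ± 0.12 for Prosbeta5 (adjusted p = 0.173, 0.233 and 0.236), with 1212, 1241, 1443 and 1355 for Prosbeta1, 1729.8, 1766, 1946 and 1861 for Prosbeta2 and 2048, 2418, 2655 and 2584 for Prosbeta5 in the libraries with ovaries. The direction depended on the scaling: at equal library totals the subunits' median was 0.21 and that of all genes 0.34, with 2 canonical subunits higher, Prosalpha5 and Prosalpha6, beside 43.9% of all genes. Relative to all genes the subunits lay 0.13 lower under either scaling, which is so by construction, since scaling moves all genes of a library alike. Without heterozygous fat body library 1, the lowest of its group, 18 subunits were called lower, beside 11.7% of all genes. The hemocyte list (7 of 7 genes read, none at 0) summed to 1354 to 1844 in fat body and 2688 to 3434 with ovaries. Ppn (means of 56.7 and 1620 in titled homozygotes) and Pxn (169 and 539) made up most of this difference, while crq, He and eater had lower means with ovaries in both genotypes. The part of other cells in the subunit levels was not tested.

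In the libraries titled homozygous the tissue comparison left the subunits near the median of all genes. Their median was -0.04 and that of all genes -0.05, and 23 of 31 folds lay below 0, beside 54.75% of all genes. None of the 31 passed the limma threshold, with 19.8% of all genes higher and 13.2% lower. None had an unadjusted limma p below 0.05 either, beside 3392 of 7824 genes. Neither edgeR nor DESeq2 called any. Prosalpha6 was higher with ovaries without overlap (17.6% of all genes were), with a fold of 0.20 ± 0.10 (adjusted p = 0.142). The numbers were taken to pair these libraries, and with the block Prosalpha6 rose (adjusted p = 0.0205, beside 24.2% of all genes) and Rpn6 fell by 0.28 (adjusted p = 0.0138, beside 23.9%). At equal totals 27 canonical subunits were higher with a median of 0.39, but so was the median of all genes at 0.37, with 46.4% of all genes higher. In the catalytic subunits the libraries with ovaries had 1165, 1362, 1154 and 1216 for Prosbeta1, 1593, 1857, 1584 and 1647 for Prosbeta2 and 2103, 2395, 2111 and 2179 for Prosbeta5.

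The other genes of the ubiquitin and proteasome pathway, a list of 34 that were all tested, had calls in both directions. Between genotypes in fat body their median fold was -0.10, 4 fell and 2 rose, where 5.39% of all genes were called. At equal totals 6 fell and 0 rose, where 5.46% of all genes fell, and with the block 6 fell and 3 rose, where 7.39% fell. Those that fell most clearly were Uch-L5, a deubiquitinase that docks on the regulatory particle, p47 and Npl4, cofactors of the TER94 segregase, and CSN5, the catalytic subunit of the COP9 signalosome. Uch-L5 had 619.8, 715, 793 and 787 in heterozygous and 399, 381, 402 and 444 in titled homozygous fat body, without overlap, a fold of -0.84 ± 0.09 (adjusted p = 4.49e-05). The folds of p47, CSN5 and Npl4 were -0.49 ± 0.07, -0.50 ± 0.07 and -0.36 ± 0.08 (adjusted p = 0.000737, 0.00107 and 0.0141). Of the 6 genes called, 4 lie on the third chromosome, as do 12 of the 34 listed. Uch, outside the list and on arm 2L, fell by 0.90 ± 0.14 (adjusted p = 0.00142).

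With ovaries, 3 of the 34 fell and 0 rose between genotypes (1.19% of all genes fell), namely Uch-L5 (-0.48 ± 0.09, adjusted p = 0.00947), CSN5 (-0.36 ± 0.07, adjusted p = 0.0181) and p47 (-0.30 ± 0.07, adjusted p = 0.0389). Uch-L5 there had 811, 852, 923 and 906 in heterozygotes and 616, 631, 589.6 and 659.9 in titled homozygotes, without overlap. With the number as a block RpL40, a fusion of ubiquitin and a ribosomal protein, also rose there (adjusted p = 0.0202, beside 4.44% of all genes). Between tissues 3 of the 34 rose and 5 fell in heterozygotes, where 18.6% of all genes rose and 10.7% fell. In titled homozygotes 3 rose and 4 fell, beside 19.8% and 13.2% of all genes, and with the block 4 rose and 11 fell, beside 24.2% and 23.9%. Uch-L5 rose with ovaries by 0.27 ± 0.09 in heterozygotes (adjusted p = 0.0318) and by 0.62 ± 0.09 in titled homozygotes (adjusted p = 5.41e-05). REG, which encodes an activator that caps the core particle, rose by 0.99 ± 0.24 in heterozygotes (adjusted p = 0.00664) and by 0.88 ± 0.24 in titled homozygotes (adjusted p = 0.0119). cnc, the homologue of the vertebrate Nrf factors that control proteasome genes, fell by 0.37 ± 0.08 in heterozygotes (adjusted p = 0.00258) and by 0.46 ± 0.08 in titled homozygotes (adjusted p = 0.000385). Its inhibitor Keap1 fell by 0.47 ± 0.15 and 0.66 ± 0.15 in the same order (adjusted p = 0.0303 and 0.0041), and Roc1a, the RING subunit of cullin ligases, by 0.21 ± 0.05 and 0.17 ± 0.05 (adjusted p = 0.00924 and 0.0262). The F-box gene ago had folds of -0.16 ± 0.06 in heterozygotes (adjusted p = 0.0765) and -0.34 ± 0.06 in titled homozygotes (adjusted p = 0.000994). The shuttle factor Rad23 had folds of -0.28 ± 0.09 (adjusted p = 0.0249) and -0.16 ± 0.09 (adjusted p = 0.171). The interaction of genotype and tissue passed the limma threshold for 0 of the 34 genes, and edgeR and DESeq2 also called 0. With limma 1 of the 34 had an unadjusted p below 0.05, beside 182 of 7824 genes. At equal totals the split between tissues was 17 higher and 0 lower in heterozygotes and 19 higher and 0 lower in titled homozygotes, beside 43.9% and 46.4% of all genes higher, so the direction for this list too holds only relative to the shift of all genes.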

How the data were processed

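RNA from 16 female samples was sequenced, 4 libraries in each of 4 groups taken from the sample titles. The genotype field of the samples titled homozygous counts up the allele number, and the deposited columns name the heterozygous libraries WT and the others M, so the titles were followed. The submitters' processing notes list Trimmomatic 0.36, STAR 2.5.2b, Subread 1.5.0p3 with featureCounts, and the build dm6. Strand setting, annotation and the treatment of multiply mapped reads are not given in the sources. The deposited signal is a gene count divided by a size factor per library. Divided by the value of 1 read, 100% of the nonzero values came out whole (tolerance 1e-06). In titled homozygous fat body library 4 and heterozygous library 1 with ovaries the value of 1 read is so near 1 that this rests on direct division alone. A value of 0 allows up to 3 reads, counting error only, since PCR copies are not independent molecules.

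Genes with a mean of at least 10 (7824) were fitted as log2(normalised count + 1), a scale that understates changes of low genes, with limma 3.58.1 in R 4.3.3, 1 mean per group, an intensity trend, 2-sided tests and Benjamini-Hochberg adjustment over all of them at 0.05. Count tests used edgeR 4.0.16 (quasi-likelihood) and DESeq2 1.42.0 on the recovered reads. Coding and exon lengths and positions came from an Ensembl annotation of the dm6 assembly, in which all 47 members were found. Members, lists and the rule for named genes were chosen with earlier results of these data known. That rule names the called subunits with the largest folds (or the smallest p where none was called), paralogues with a mean of at least 1, the subunits with the highest and lowest level per kb, the 3 catalytic subunits, up to 4 called pathway genes per comparison by smallest p, and the 10 genes most like the subunits. Rpn1, Rpn3, Rpn6, Prosalpha5, Prosbeta7 and Uch were added after their values were seen.

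Whether numbers pair libraries was checked by correlating deviations from group means across all genes. Same-number correlations were 0.213 to 0.676 between genotypes in fat body, 0.173 to 0.417 between genotypes with ovaries and 0.198 to 0.610 between tissues in titled homozygotes, all over 0.1. Between tissues in heterozygotes they were 0.284, 0.0151, 0.0400 and 0.225 for numbers 1 to 4, and the numbers were not taken as pairs. Libraries of different numbers were not correlated, so the choice rests on the cut of 0.1 alone. Alternatives were equal library totals, a pseudocount of 8, no filter, the count tests, a replicate block, only the 8 libraries compared, and leaving out libraries. The replicate block was 1 factor for the number, shared by all 16 libraries and thus by all comparisons.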

Additional observations from a re-analysis of the deposited data

Results flagged for a closer look

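Of 52 sets of 4 libraries examined for the subunits described library by library, 4 held a library far from the other 3. Chance alone flags about 1 in 20 where values are continuous and sets independent. The subunits move together, and a set with reads in a single library is always flagged, so that rate does not apply here. Prosalpha6 stood at 2061 normalised counts in titled homozygous library 2 with ovaries, with the other 3 between 1812 and 1829. Rpt6R was lowest at 2.58 in heterozygous library 2 with ovaries, where the others lay between 5.81 and 6.43. Within titled homozygous fat body, Rpt6R was read only in library 4, at 0.998, which is 1 read. Within heterozygous fat body, Prosbeta2R2 was read only in library 2, at 1.02, also 1 read. No cause was tested.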

How the results depend on the processing

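Counts of members past the threshold changed with the setting, and the cause was not tested. In the fat body genotype comparison the count was 3 and became 16 at equal totals, 6 with edgeR, 9 with DESeq2, 27 with the replicate block, 0 with only the 8 libraries compared, 0 without heterozygous fat body library 2 and titled homozygous fat body library 1, 18 without number 1 in every group and 31 at equal totals with the block. All of these calls were lower, and at equal totals with the block 12.49% of all genes were lower. Leaving out 1 library at a time gave 0 to 21, with medians of -0.42 to -0.24. Between genotypes with ovaries the count was 0, and 0 without any single library, with medians of -0.22 to -0.10. It was 1 lower with the block (4.0% of all genes were lower) and 4 lower at equal totals with the block (6.24%). Between tissues in heterozygotes the count of 1 became 3 at equal totals, all higher (43.9% of all genes were higher). It became 3 with DESeq2, 1 higher and 2 lower (19.72% and 14.0%). With the block it was 12, 1 higher and 11 lower (23.47% and 21.66%), though numbers do not pair there. Without number 1 it was 17, 1 higher and 16 lower (20.86% and 15.63%). At equal totals with the block it was 16, all higher (52.61%). Without single libraries it was 1 to 19, the 19 being 1 higher and 18 lower (19.3% and 11.7%). The subunits' median there moved to 0.21 at equal totals, with or without the block, and to -0.29 to -0.13 without single libraries, and the folds of Prosbeta1, Prosbeta2 and Prosbeta5 reversed to 0.18, 0.23 and 0.19. In titled homozygotes the count of 1 became 28 higher at equal totals, beside 46.4% of all genes higher. It was 31 higher at equal totals with the block (55.3%) and 2 higher with no filter (11.9%). With the block it was 2 higher and 1 lower (24.2% and 23.9%). Without number 1 it was 1 higher and 1 lower (22.5% and 17.0%). Without any single library it was 1. The median was 0.39 at equal totals and -0.12 to 0.01 without single libraries. The interaction count was 0 throughout, with medians of 0.08 to 0.26 without single libraries. Other settings kept the counts within 1.5 times. Depth limits the paralogues, most of which had a few reads in all, and the copies of Prosalpha1 at 0 reads.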
